A study of Rattus norvegicus with 8 samples.

Results

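The genes Syt1, Vamp2, Snap25 and Gap43 were followed in the upper spinal cord of rats after a spinal cord hemisection. They are 4 of the 32883 Ensembl gene IDs in the deposited table, and all 4 were among the 3016 that passed the expression filter described below. They were chosen by ID as genes of presynaptic release and axon growth: ENSRNOG00000006426 (Syt1), ENSRNOG00000006989 (Vamp2), ENSRNOG00000006037 (Snap25) and ENSRNOG00000001528 (Gap43). The table carries IDs alone, the symbols came with the choice of the genes, and no table used here could check them. All animals were Sprague Dawley rats, an outbred strain, with a hemisection at thoracic segment 9 and tissue taken 23 days after injury from cord above the lesion that the study calls intact. The groups differed in training: 4 samples came from animals with training and 4 from animals without it. Injury and time were common to both groups, so neither can be read from these data. The sources used here do not give the kind of training, the sex and age of the animals or the segment sampled, and all titles carry a code, L1, that they do not explain.

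A nerve terminal releases transmitter when a synaptic vesicle fuses with the plasma membrane. VAMP2 (synaptobrevin), anchored in the vesicle, pairs with SNAP25 and syntaxin on the plasma membrane to form the SNARE complex that drives fusion. Synaptotagmin 1, the product of Syt1, sits on the vesicle and binds the calcium that triggers the event. GAP43 is a membrane-bound protein of growth cones and terminals, abundant in axons during growth and regeneration. In the spinal cord these transcripts are made mainly by neurons, and the terminals that use the proteins may belong to cells whose bodies, and RNA, lie elsewhere.

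Libraries were made by CEL-Seq2, which tags each poly(A) RNA molecule with a unique molecular identifier (UMI) and counts its 3′ end. Library totals ran from 141737 to 298262 counts. They ran from 179264 to 298262 in untrained and from 141737 to 216603 in trained samples. Levels below are CPM, counts scaled to the library total. Fold changes come from edgeR with TMM scaling, adjusted p-values are Benjamini-Hochberg values over all genes tested, and the threshold was 0.05. No label ties each sample to its own animal, so p-values measure the spread between these samples, which may be technical. In whole tissue, fewer cells of a type and less RNA per cell cannot be told apart. Markers of neurons and glia could not be tied to rows of the table, so the tissue label was not checked. The same holds for the other release and axon growth genes that had been listed, such as syntaxins, synapsins and Stmn2. They are not analysed here.

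Together the 4 genes held between 0.497% and 0.811% of the counts of a library. Their order was the same in all 8 libraries: Vamp2 was highest, followed by Snap25, Gap43 and Syt1. Ranked by mean CPM among the 3016 genes, Vamp2 stood at place 28, Snap25 at 62, Gap43 at 126 and Syt1 at 482. A 3′ UMI count does not grow with transcript length, but capture can differ between 3′ ends, so the order is one of counted molecules. In 2 libraries Gap43 came close to Snap25. In untrained 3 they were at 1430 CPM (95% Poisson interval 1269 to 1605) and 1464 CPM (1302 to 1641), and in trained 4 at 1270 CPM (1091 to 1470) and 1312 CPM (1130 to 1515). These intervals cover counting error only, and they overlap in both libraries.

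Sequence upstream of the start was at hand for 2 of the 4 genes, Syt1 and Vamp2. These are also, with no link to sequence tested, the members whose levels ran most alike over the 8 libraries. A stretch of each around motif matches near the start is shown, with capitals marking matches to a motif, from RefSeq on build GRCr8, the window being 250 bases before and 50 after the start the table lists. The Syt1 stretch is chr7:46244222-46244251 on the minus strand and the Vamp2 stretch is chr10:54292748-54292777 on the plus strand.
Syt1: ggggtgtgtgcaGGGCGGGGGCGGccagct
Vamp2: cccggatgcgggTGACGtgcggccgccatc
Both strands were searched for the CRE half-site TGACG, the GC box GGGCGG and the TATA box TATAAA. The Syt1 stretch holds a pair of adjoining GC boxes that begin 26 and 20 bases before the start. The Vamp2 stretch holds a half-site that begins 29 bases before the start, and GC boxes begin 179, 99 and 58 bases before it. Another Syt1 GC box begins 237 bases before its start. Of 33469 windows of the same length, 33.1% hold a GC box, 21.2% a CRE half-site and 14.2% a TATA box, which neither gene's window holds. A match is a description of letters and not a binding site.

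The study asked whether training after injury changed transcripts of the cord above the lesion. The level of each gene by group bears on that for these 4 genes alone. With 4 samples per group, a gene that does not pass is not shown to be unchanged. None of the 4 genes passed the threshold (edgeR quasi-likelihood test, adjusted p = 0.999 for each). In that fit 0% of the 3016 genes were called, and 51 (1.69%) had an unadjusted p under 0.05, none of the 4 among them. DESeq2 and limma voom (with sample quality weights) also called 0 genes, with 31 and 53 at an unadjusted p under 0.05. Trained and untrained values overlapped for all 4 genes, where 1.46% of genes had groups that did not overlap.

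**Figure D1:**
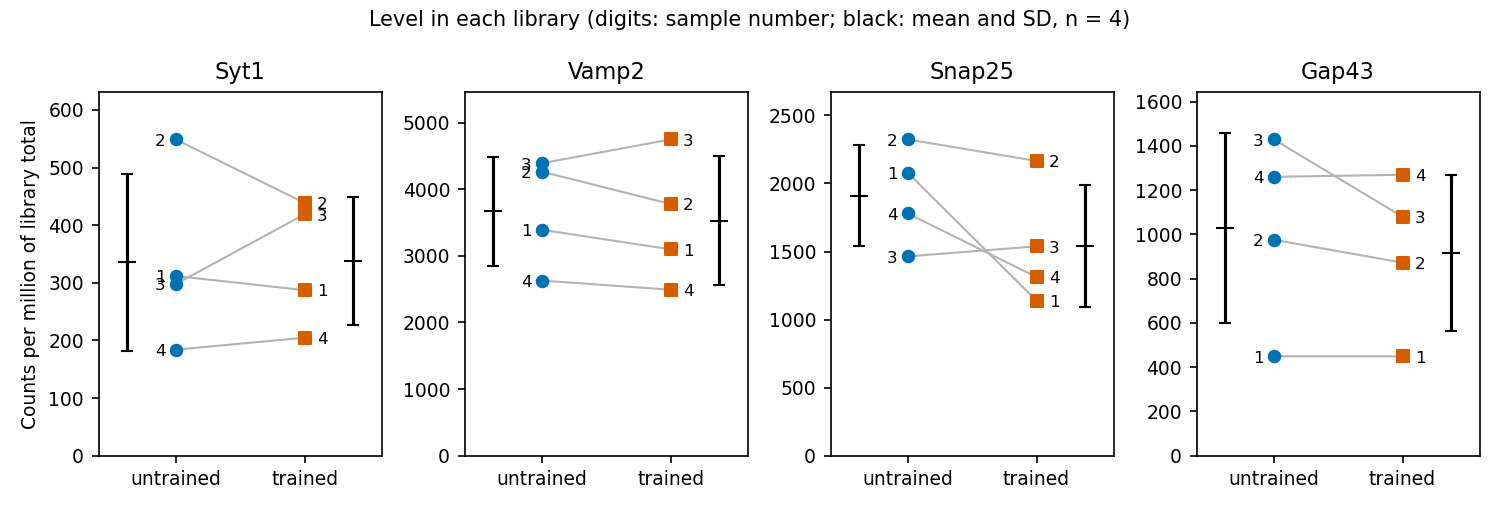
CPM, counts scaled to the library total (y axis, from 0), for each gene in 4 untrained (blue circles) and 4 trained (orange squares) libraries; digits are sample numbers, grey lines join equal numbers, and black marks are mean and SD (n = 4). The groups overlap in every panel, and the libraries numbered 1 are lowest for Gap43 while those numbered 4 are lowest for Syt1 and Vamp2.

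Syt1, the calcium sensor, was at 312, 549, 298 and 184 CPM in untrained samples 1 to 4 and at 287, 439, 419 and 205 CPM in trained samples 1 to 4. The lowest value of each group was in sample 4 and the highest in sample 2, and the trained values lay within the untrained range. Group means were nearly equal, at 336 ± 153 CPM without and 337 ± 111 CPM with training (SD, n = 4). On the log2 scale the fitted difference with training was 0.08 (SE 0.30), with a 95% interval of -0.56 to 0.71 (edgeR, adjusted p = 0.999). The trained library was higher in 2 of 4 same-number pairs and lower in 2. Without untrained 2 the log2 fold change was 0.40, and without untrained 4 it was -0.085. Syt1 had the fewest counts of the 4 genes, 29 to 158 per library, and is the one where counting error weighs most.

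Vamp2, the vesicle SNARE, was at 3390, 4262, 4388 and 2627 CPM in untrained samples 1 to 4 and at 3097, 3776, 4746 and 2491 CPM in trained samples 1 to 4. Trained samples held both the highest and the lowest of the 8 values. The means were 3667 ± 823 CPM without and 3527 ± 967 CPM with training (SD, n = 4). The log2 fold change was 0.013 (SE 0.25), with a 95% interval of -0.51 to 0.54 (edgeR, adjusted p = 0.999). Scaled by column totals, as the CPM are, it was -0.056, where TMM scaling gave the positive value. Its sign turned in 12 of 24 alternative settings, and it was -0.20 without trained 3 and 0.15 without untrained 3. Vamp2 is also abundant enough for UMIs to run short if they had 6 bases, a length the sources used here do not give. At most 4096 molecules of a gene could then be told apart. The highest count of any gene was between 3463 and 4012 in each library. Whether UMIs ran short was not tested. Correcting the 353 to 1227 counts of Vamp2 for that ceiling would add 4.57% to 18.9% per library. The corrected log2 fold change of Vamp2 was -0.043. For Snap25 the correction would add 2.34% to 9.18%, and its corrected log2 fold change was -0.28.

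Snap25, the plasma membrane SNARE, was at 2079, 2324, 1464 and 1779 CPM in untrained samples 1 to 4 and at 1138, 2165, 1538 and 1312 CPM in trained samples 1 to 4. The 2 lowest values of the 8 were in trained samples 1 and 4, and the highest was in untrained 2. Means were 1912 ± 372 CPM without and 1539 ± 449 CPM with training (SD, n = 4). The log2 fold change was -0.25 (SE 0.22), with a 95% interval of -0.71 to 0.22 (edgeR, adjusted p = 0.999). In this fit it lay farther from 0 than in the other 3 genes and than in 67.4% of all genes tested. It had the same sign in all 24 alternative settings and passed the threshold in none of them. Its size depended on single libraries: it was -0.11 without trained 1, -0.16 without untrained 2 and -0.41 without trained 2.

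Gap43, the growth cone gene, was at 449, 976, 1430 and 1261 CPM in untrained samples 1 to 4 and at 449, 873, 1080 and 1270 CPM in trained samples 1 to 4. Both libraries numbered 1 were far below the other 6, and the lowest values of the 2 groups were equal to the digits shown. The means were 1029 ± 429 CPM without and 918 ± 352 CPM with training (SD, n = 4). The log2 fold change was -0.11 (SE 0.36), with a 95% interval of -0.87 to 0.64 (edgeR, adjusted p = 0.999). That interval, from 0.547-fold to 1.56-fold, was the widest of the 4 genes. Its sign turned without untrained 3 (0.12), without untrained 4 (0.035) and without trained 1 (0.13).

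Libraries of the same number deviated together, so the contrast was also fitted with the sample number as a block. No call changed, and the intervals narrowed. The likeness was seen in these same libraries, and the labels state no pairing. The narrower intervals hold only if equal numbers do pair the samples. The standard error of the Gap43 log2 fold change went from 0.36 to 0.12, a ratio of 2.86, where the median ratio over all genes was 1.26. Ratios were 2.17 for Vamp2, 1.79 for Syt1 and 1.58 for Snap25. The blocked log2 fold changes were 0.08 for Syt1 (95% interval -0.28 to 0.44, adjusted p = 0.967 by edgeR) and -0.00024 for Vamp2 (-0.25 to 0.24, adjusted p = 0.999). For Snap25 the blocked value was -0.27 (95% interval -0.57 to 0.033, adjusted p = 0.914 by edgeR, unadjusted p = 0.0774). For Gap43 it was -0.08 (95% interval -0.35 to 0.18, adjusted p = 0.947 by edgeR). Unadjusted for the number of genes, the blocked intervals ran from 0.844-fold to 1.18-fold for Vamp2 and from 0.784-fold to 1.14-fold for Gap43. For Snap25 they reached down to 0.676-fold and for Syt1 up to 1.36-fold, so differences of that size were not excluded. With the block 0% of genes were called and 154 (5.11%) had an unadjusted p under 0.05, none of the 4 among them. Snap25 had an unadjusted p of 0.0318 in the blocked fit scaled by column totals, which called 2 genes (edgeR). It had one of 0.0242 in the blocked fit without number 3, and was not called in either (edgeR). Without number 1 its blocked log2 fold change was -0.11 (unadjusted p = 0.362 by edgeR). Without number 2 it was -0.33 (unadjusted p = 0.0901) and without number 4 it was -0.22 (unadjusted p = 0.229), by edgeR.

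**Figure D2:**
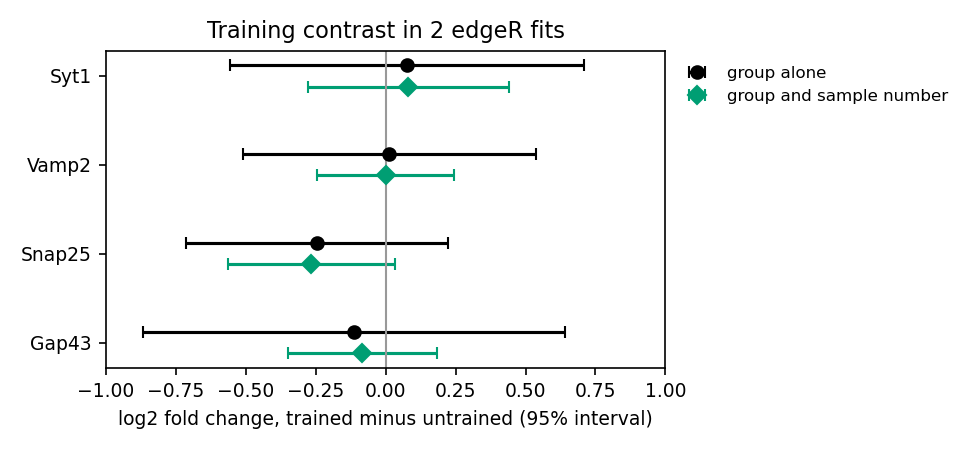
Log2 fold change of trained minus untrained (x axis) for the 4 genes, with 95% intervals, from edgeR fits of group alone (black circles) and of group with sample number (green diamonds). Every interval spans 0, and the Gap43 interval narrows most, from -0.87 to 0.64 down to -0.35 to 0.18.

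Within same-number pairs the differences were small for Gap43 in samples 1 and 4. The trained to untrained ratio of CPM was 0.9996 in pair 1, 0.894 in pair 2, 0.755 in pair 3 and 1.01 in pair 4. Pair 1 rests on 134 untrained and 86 trained counts. Their 95% Poisson intervals were 376 to 532 and 359 to 555 CPM, so the near-even ratio is not exact. For Vamp2 the ratio ran from 0.886 to 1.08, with trained lower in 3 of 4 pairs. Snap25 was lower in 3 of 4 pairs too, with ratios of 0.548, 0.932, 1.05 and 0.737, and Syt1 had ratios of 0.921, 0.799, 1.41 and 1.11. A trained value below the untrained one in 3 or 4 of 4 pairs was found in 41.4% of all genes. The pair that differed most was pair 1 of Snap25, where 620 counts in the untrained and 218 in the trained library stood behind 2079 and 1138 CPM. In the same pair the ratios of Syt1, Vamp2 and Gap43 were 0.921, 0.914 and 0.9996, nearer to even.

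The libraries also fall by sample number, which the labels do not explain. Gap43, Vamp2 and Syt1 differed among the 4 numbers and Snap25 did not pass the threshold, in a fit with group and number. Of all genes tested, 381 (12.6%) passed in that fit. Gap43 had the third highest F of the 3016 genes (F = 32.97, adjusted p = 0.000898 by edgeR, rank 3). Vamp2 reached an adjusted p of 0.015 (rank 138) and Syt1 one of 0.0205 (rank 188), while Snap25 was at rank 1112 with an adjusted p of 0.225. What the number stands for was not tested. Depth goes with the number in part: in each group the libraries numbered 1 and 2 held more counts than those numbered 3 and 4. In counts thinned to the smallest total, 141737, the adjusted p was 0.000375 for Gap43, 0.0138 for Vamp2, 0.0243 for Syt1 and 0.306 for Snap25 (edgeR). Thinning, chosen after the data were examined, makes totals equal and cannot remove other differences that go with depth.

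**Figure D3:**
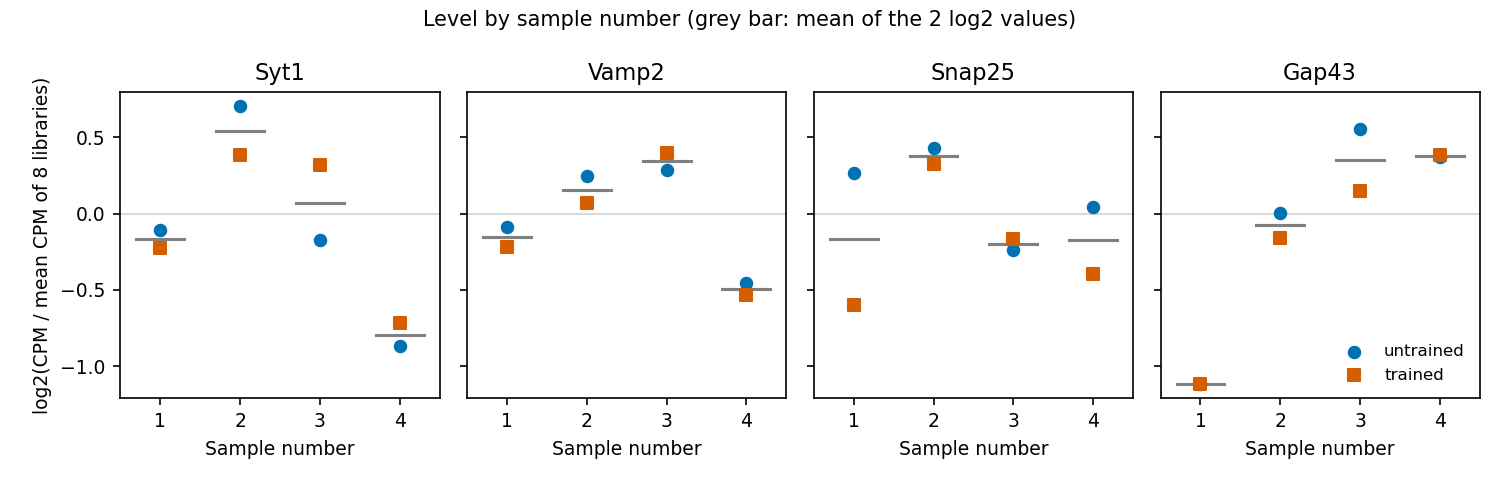
Level of each gene relative to its mean over the 8 libraries, as log2(CPM / mean CPM) on the y axis, by sample number on the x axis, for untrained (blue circles) and trained (orange squares) libraries; grey bars are the mean of both. The Gap43 libraries numbered 1 coincide at 449 CPM, below all others, while the Snap25 libraries numbered 1 lie apart, at 2079 and 1138 CPM.

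Gap43 was lowest in number 1 and next lowest in number 2. Its mean CPM over both libraries was 449 for number 1, 924 for number 2, 1255 for number 3 and 1265 for number 4. Both libraries numbered 1 were below all others, a pattern held by 4.05% of genes. Against number 1, the fitted level was 3.08-fold in number 3 (log2 1.62, SE 0.18, adjusted p = 0.00100 by edgeR, with 3.81% of genes called in that contrast). It was 3.07-fold in number 4 (adjusted p = 0.00058 by edgeR, 10.8% called). Number 2 was 2.03-fold above number 1 and did not pass (adjusted p = 0.0863 by edgeR, 0% called). Number 3 was 1.52-fold above number 2 (adjusted p = 0.0788 by edgeR, 2.16% called) and number 4 was 1.51-fold above it (adjusted p = 0.0371, 12.3% called). Numbers 3 and 4 could not be told apart (log2 difference -0.004, 95% interval -0.37 to 0.36). The adjusted p for Gap43 among numbers stayed under the threshold when any 1 library was left out, from 5.02e-07 to 0.0201.

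Syt1 and Vamp2 had number 4 as their lowest. The mean of both libraries was 194 CPM for Syt1 and 2559 CPM for Vamp2, and both libraries numbered 4 were below the other 6 for each gene, a pattern held by 12.1% of genes. Syt1 was highest in number 2, at 494 CPM, 2.54-fold above number 4, and Vamp2 in number 3, at 4567 CPM, 1.78-fold above number 4. In number 4 against number 2, Syt1 had a fitted ratio of 0.432 (adjusted p = 0.00719 by edgeR, 12.3% of genes called). In number 4 against number 3, Vamp2 had one of 0.553 (adjusted p = 0.0333 by edgeR, 0.663% called). Both calls among numbers were lost without some libraries: Syt1 without untrained 2 (adjusted p = 0.134), untrained 4 (0.143) or trained 4 (0.124), by edgeR. With all libraries kept, DESeq2's likelihood ratio test gave Syt1 an adjusted p of 0.104, which does not pass. Vamp2 lost its call without untrained 2 (0.0654), untrained 4 (0.0853), trained 2 (0.0599), trained 3 (0.0988) or trained 4 (0.107), by edgeR. Snap25 went the other way and passed once untrained 1 was left out (adjusted p = 0.0134 by edgeR).

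Over the 8 libraries the coefficient of variation was 37.8% for Gap43, 36.8% for Syt1, 24.96% for Snap25 and 23.2% for Vamp2, around a median of 28.7% over the genes tested. Counting alone would give 7.24% for Gap43, 12.3% for Syt1, 5.44% for Snap25 and 3.77% for Vamp2. Of all genes tested, 82.5% had a coefficient above that of counting alone, so this is not particular to the 4. The coefficient was 5.23 times that of counting alone for Gap43, 2.99 times for Syt1, 4.59 times for Snap25 and 6.16 times for Vamp2. The median over the genes tested was 1.43 times, and most of those are less abundant, where counting alone gives a higher coefficient. The highest library was 3.18 times the lowest for Gap43 and 2.98 times for Syt1, against 2.04 times for Snap25 and 1.91 times for Vamp2.

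Ratios of counts inside a library, in which the total cancels, show how the genes varied against each other without any scaling. Gap43 counts per Vamp2 count were 0.133, 0.229, 0.326 and 0.48 in untrained samples 1 to 4 and 0.145, 0.231, 0.228 and 0.51 in trained samples 1 to 4. The ratio in the libraries numbered 4 was above that of all others and in those numbered 1 below, in both groups. Gap43 per Snap25 ran from 0.216 in untrained 1 to 0.976 in untrained 3, a 4.52-fold range. Syt1 per Vamp2 had a narrower range of 1.897-fold, from 0.0679 in untrained 3 to 0.129 in untrained 2. The range was 2.09-fold for Vamp2 per Snap25, 2.63-fold for Syt1 per Snap25 and 3.85-fold for Gap43 per Vamp2. Gap43 per Vamp2 averaged 0.292 ± 0.148 without and 0.278 ± 0.159 with training, and Syt1 per Vamp2 0.0897 ± 0.0282 and 0.0948 ± 0.0149 (SD, n = 4). Gap43 per Snap25 averaged 0.58 ± 0.332 without and 0.617 ± 0.274 with training (SD, n = 4). Syt1 per Snap25 averaged 0.173 ± 0.0585 without and 0.221 ± 0.0523 with training, and Vamp2 per Snap25 1.98 ± 0.69 and 2.36 ± 0.645 (SD, n = 4). The groups overlapped for all 5 ratios, and no test was run on them.

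**Figure D4:**
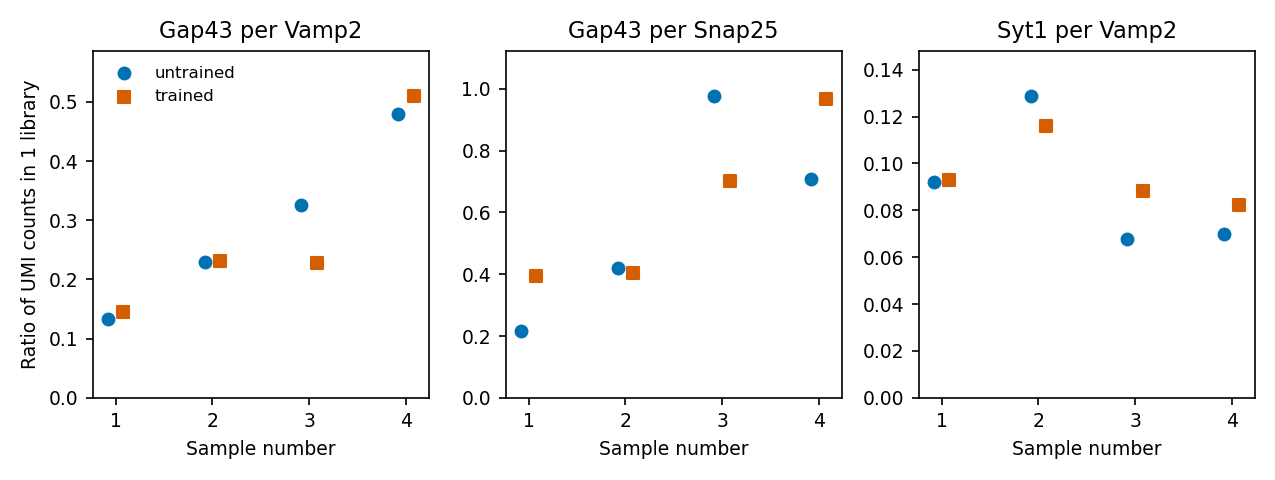
Ratio of UMI counts of 2 genes inside each library (y axis, from 0) by sample number (x axis), for untrained (blue circles) and trained (orange squares) libraries. Gap43 per Vamp2 runs from 0.133 to 0.51 with the libraries numbered 1 lowest and those numbered 4 highest, and Syt1 per Vamp2 from 0.0679 to 0.129.

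Likeness of pattern was Pearson's r of log2 CPM, TMM-scaled over the tested genes with a prior count of 2, across the 8 libraries. These libraries come in pairs of equal number that deviate together, and their depths differ, so r is a description without a p. Syt1 and Vamp2 had r = 0.78. Syt1 stood at place 57 of 3015 genes in likeness to Vamp2, and Vamp2 at place 91 in likeness to Syt1. All other pairings of the members stood at places 458 to 1787. Syt1 and Snap25 had r = 0.43, and Vamp2 and Snap25 had r = 0.18. Gap43 had r = 0.23 to Vamp2, 0.07 to Snap25 and -0.11 to Syt1. The gene most like Gap43 was ENSRNOG00000007955 (r = 0.96), which has no symbol here and had 17 to 41 counts per library. The one most like Snap25 was ENSRNOG00000002934 (r = 0.93), also without a symbol. The nearest gene of Syt1 had r = 0.96 and that of Vamp2 r = 0.95.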

How the data were processed

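The deposited data are counts, whole numbers per Ensembl rat gene ID in 1 table that the authors named UMI counts, with a column for each of 8 samples. Per the labels' protocols, CEL-Seq2 libraries were prepared for the Illumina HiSeq1500. HISAT2 2.0.4, HTSeq 0.6.0 and build Rnor_6.0 are named in the submitters' processing notes. How long the UMIs were, whether counting used strand and which annotation release was used are not given in those sources. Columns were matched to sample titles, and groups come from the labels. The members and lists were chosen with earlier results of these data known. The genes named are the 4 members and the single nearest gene of 2 of them. None of the deposited IDs (0) matched the RefSeq gene table.

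The filterByExpr function of edgeR (minimum count 10, minimum total 15) chose the genes to test, totals were recomputed and scaled by TMM, and edgeR 4.0.16 in R 4.3.3 fitted a quasi-likelihood model of group over all kept genes. A second model of group and number tested the 4 sample numbers. The scripts were tested on simulated data. Alternatives were DESeq2 1.42.0, limma 3.58.1 voom with sample quality weights, other scalings and filters, and thinning. A UMI ceiling, the number as a block and left-out samples were also tried. A library with 0 counts of a gene allows up to 10.1 to 21.2 CPM (3 counts, counting error only).

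Whether equal numbers pair the samples was checked as the correlation, across genes, of deviations from group means in TMM-scaled log2 CPM (prior count 2). It was 0.34, 0.40, 0.27 and 0.51 for numbers 1 to 4, all above 0.1, so the numbers were taken as pairs. Of the unequal numbers, untrained 1 with trained 2 (0.256), untrained 2 with trained 1 (0.178) and untrained 3 with trained 4 (0.107) were also above 0.1. The labels do not state that equal numbers are pairs. In each group numbers 1 and 2 also held more counts than numbers 3 and 4, and the check did not set depth apart from number.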

Additional observations from a re-analysis of the deposited data

How the results depend on the processing

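No alternative brought any of the 4 genes past the threshold for training, and adjusted p-values ran from 0.697 to 0.9999 over the 24 settings of each gene (edgeR, DESeq2 or limma). Snap25 stayed negative in 24 of 24 settings (-0.41 to -0.11). The other genes lie near 0 and changed sign. The settings refit the same libraries and every main interval spans 0, so no direction is given for any of the 4 genes. Vamp2 was -0.0562 with column totals, -0.0844 without the low-count filter, -0.0175 by limma voom and -0.0434 with the ceiling correction. With the replicate block Vamp2 was -0.000243, and it was -0.0674 when column totals and -0.0565 when the ceiling correction were added to the block. Leaving out samples gave -0.20 to 0.15 for Vamp2, -0.0846 to 0.40 for Syt1, -0.38 to 0.13 for Gap43 and -0.41 to -0.11 for Snap25. Syt1 was -0.000354 with column totals and -0.0183 without the filter. When the pair numbered 1 was left out of the blocked fit, Vamp2 was -0.00245. When the pair numbered 3 was left out, Syt1 was -0.0732, Vamp2 -0.0570 and Gap43 0.00964.

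The count of 0 genes past the threshold became 6 without the filter, 2 with the replicate block and column totals, and 0 to 4 in blocked fits without 1 number (4, 1, 0 and 2 for numbers 1 to 4). Among sample numbers, Gap43 passed in 12 of 12 settings and Vamp2 in 7. Syt1 passed in 8, and DESeq2's likelihood ratio test gave it an adjusted p of 0.104. Over left-out samples the adjusted p by edgeR ran from 0.00308 to 0.143 for Syt1, from 2.38e-05 to 0.107 for Vamp2 and from 0.0134 to 0.756 for Snap25. The thinned test among numbers was chosen after the data were examined. The cause of these changes was not tested. Syt1 had the fewest counts of the 4 genes, with 29 in its smallest library.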

Other observations

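In 18 sets of 4 values, the CPM of each gene and the 5 count ratios in each group, no library stood apart from the other 3 by Dixon's criterion at 95%.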
